A study of Mus musculus with 2 samples.

Results

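The microRNA genes numbered Mir6896 to Mir7093 are a late block of the mouse catalogue, made up largely of short hairpins predicted to come from introns. They were picked by symbol alone: each Ensembl identifier of the count tables was matched to its GENCODE symbol, and every row named Mir with a number from 6896 to 7093, whatever its suffix, was taken. This gave 177 members of the 1973 microRNA gene rows, carrying 175 of the 198 numbers in the range. The other 23 numbers were not analysed here. The data are microRNA-seq counts from embryonic mouse limb, a single group of 2 biological replicates, each a pool of limbs of both sexes from healthy embryos of strain B6NCrl at 12.5 days, selected for RNA under 30 nucleotides. Replicate 1 pooled 88 embryos and replicate 2 pooled 68, and no genotype, treatment or control group belongs to the design. The measure used throughout is the own-strand count of a gene, also expressed as CPM, counts per 1000000 of all own-strand microRNA gene counts of that library.

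A conventional microRNA hairpin is cut out of its primary transcript in the nucleus by Drosha with DGCR8, exported, and cut again by Dicer to a short duplex whose arms are named 5p and 3p. A mirtron skips the Drosha step: the spliceosome cuts out a short intron, the lariat is debranched, and the whole intron folds into a hairpin that Dicer can cut. In a tailed mirtron the hairpin reaches only one end of the intron, and the rest of the intron is a tail that must be trimmed. Introns mostly begin with GU at the 5′ splice site (the donor) and end with AG at the 3′ splice site (the acceptor), behind a stretch rich in pyrimidines.

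The sequences of 9 hairpins show what the members look like. All are RefSeq sequences on GRCm38, which is mm10, written 5′ to 3′ as RNA. The first group holds the 4 members that fill a whole intron and were detected in both libraries, followed by 2 that fill a whole intron and had no count in either, those in the shortest introns of their kind. Capitals mark the bases at the 2 ends of the intron.
Mir6944, intron of Dbn1, chr13:55477681-55477776, minus strand: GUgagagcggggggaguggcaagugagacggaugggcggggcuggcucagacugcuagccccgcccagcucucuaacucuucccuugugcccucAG
Mir7068, intron of Cherp, chr8:72470016-72470089, minus strand: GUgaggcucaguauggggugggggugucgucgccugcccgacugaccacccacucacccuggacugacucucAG
Mir6958, intron of Dennd6b, chr15:89185465-89185537, minus strand: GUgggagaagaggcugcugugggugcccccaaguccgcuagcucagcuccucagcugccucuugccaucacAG
Mir7018, intron of Hspg2, chr4:137538286-137538370, plus strand: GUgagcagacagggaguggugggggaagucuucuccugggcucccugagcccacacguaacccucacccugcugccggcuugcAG
Mir7058, intron of Lat, chr7:126367971-126368045, minus strand, no count: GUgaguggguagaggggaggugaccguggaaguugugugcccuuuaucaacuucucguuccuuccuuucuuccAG
Mir6974, intron of Lta, chr17:35204475-35204557, minus strand, no count: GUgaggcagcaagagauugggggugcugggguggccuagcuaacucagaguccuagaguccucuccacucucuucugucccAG

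The commonest form among the members reaches only the 3′ splice site, and the 2 most abundant of that form are shown, again with the last 2 bases of the intron in capitals. In the last sequence, the most abundant member that crosses a splice site by more than 5 bases, capitals mark the 30 bases that lie in the coding exon of Pdgfra.
Mir7083, intron of Dock6, chr9:21809941-21810000, minus strand: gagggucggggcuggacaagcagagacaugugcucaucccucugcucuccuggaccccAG
Mir7069, intron of Farsa, chr8:84867947-84868008, plus strand: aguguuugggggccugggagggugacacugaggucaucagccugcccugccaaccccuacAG
Mir7025, exon and intron of Pdgfra, chr5:75176831-75176904, plus strand: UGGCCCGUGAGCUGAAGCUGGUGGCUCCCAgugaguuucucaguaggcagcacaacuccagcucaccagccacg

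The hairpins were placed against the annotation, where most lie at an intron end and only a minority fill an intron. Since the entries were largely predicted to come from introns, this place could hardly have come out otherwise. It describes the entries and uses no read of these libraries. An end was counted as reached when it lay within 5 nucleotides of the splice site of a host gene on the same strand. By that measure 169 of the 177 members lie at an intron end. Of these, 150 reach only the 3′ splice site, 15 fill the whole intron and 4 reach only the 5′ splice site. The match is mostly exact, since 164 hairpins end on the last base of the intron, 18 start on its first base and 14 do both. All 170 members that lie in an intron do so in an intron of a protein-coding transcript. Of these, 32 also overlap an exon of some transcript, 15 of them only in transcripts annotated as retained introns.

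Most rows of this form in the tables belong to the block. Among all gene rows matched to a symbol, 178 hairpins reach only the 3′ splice site, and members make up 84.3% of them. Of the 23 hairpins that fill a whole intron, members make up 65.2%. The members sit on 173 host entries, so nearly every one has a host gene of its own. Arap3, Cmip, Skiv2l and Srebf1 are the 4 hosts that carry 2 members each, and no member on them was detected in both libraries.

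The remaining 8 members do not reach an intron end within the tolerance. Mir6901 in Sned1, Mir6903 in Atp2b4, Mir6904 in Parp1, Mir6914 in Ankrd52, Mir6950 in Loxl2 and Mir7029 in Gcn1l1 overshoot the 3′ splice site by 6 or 7 bases into a coding exon. Their counts ranged from 0 to 4 in each library. Mir7025 straddles the 5′ splice site of a 784-nucleotide intron of Pdgfra, the receptor alpha for platelet-derived growth factor. Its 5p arm lies in the exonic part of the hairpin and its 3p arm in the intronic part. Mir7036b lies 237 nucleotides into a 24255-nucleotide intron of Add1, the cytoskeletal protein adducin, and overlaps an untranslated exon of other Add1 transcripts over all its 63 bases.

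The hairpins have features in common that the choice by number did not use. Their median length was 66 nucleotides, against 94 for the matched rows outside the block and 64 for the 28 of those rows that also reach only the 3′ splice site. Among hairpins within an intron, the median host intron measured 427.5 nucleotides for members, 15068 nucleotides for the other rows and 547 nucleotides for those 28. Where several annotated introns held a hairpin, the one with the most ends matched was taken, and among equals the shortest. Introns of protein-coding and other transcripts were used, so another transcript of the host can have a longer intron there. Members had a median GC content of 57.8%, against 50.0% in the other rows and 55.6% in the 28, and a median predicted folding energy of −40.0 kcal/mol per 100 nucleotides, against −37.4 and −38.9. The last 2 bases were AG in 92.7% of members and in 6.64% of the other rows, with 14 of the 28. An AG end largely follows from a place at the 3′ splice site, so it is not independent of the placement above. A stretch of 20 bases shared with another microRNA row, which could divide reads between genes, was found in 1.13% of members against 54.0% of the other rows and 10.7% of the 28. In hairpin length, intron length and GC content the members thus lay closer to those 28 than to the other rows as a whole.

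The base composition differed between the hairpin ends. In the last 25 bases the median pyrimidine content was 68% for members and 52% for the other rows, and in the first 25 bases the median guanine content was 44% against 28%. Rows outside the block that also lie at intron ends had like values: 68% pyrimidine and 42% guanine in the 28 at the 3′ splice site, and 68% and 54% in the 8 that fill a whole intron. These ends face each other in the folded hairpin. Mir6944 stood above the members' medians at both ends, with 76% pyrimidine and 60% guanine.

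**Figure D1:**
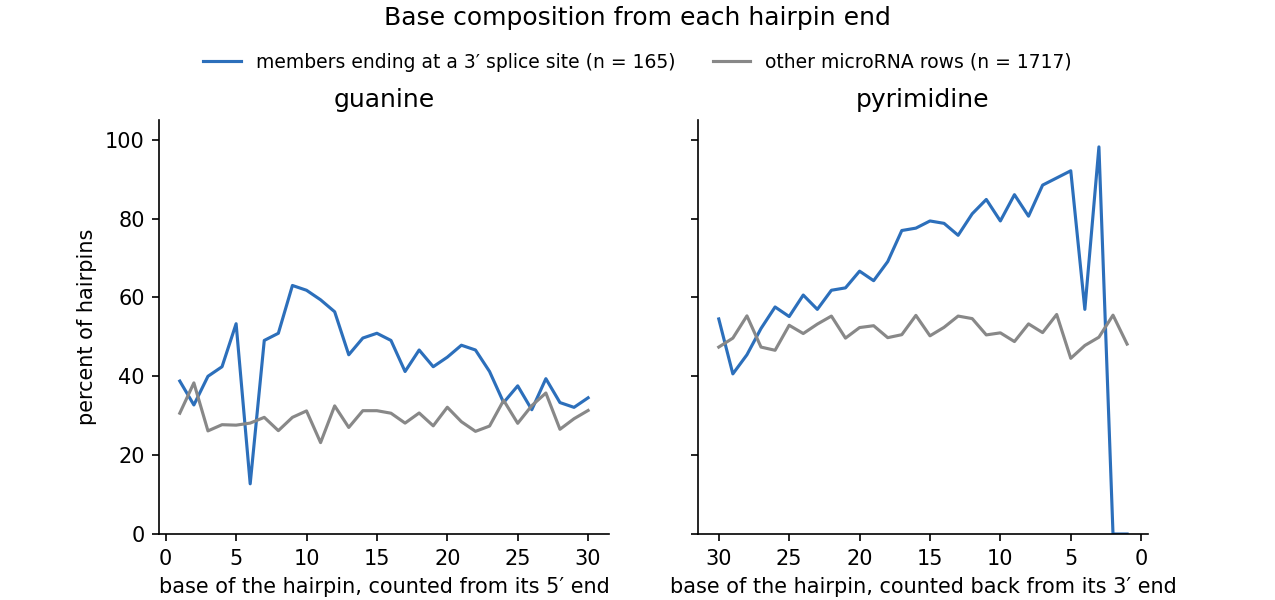
Percent of hairpins with guanine at each of the first 30 bases (left) and with a pyrimidine at each of the last 30 bases (right), for the 165 members that reach a 3′ splice site and the 1717 matched rows outside the block. The members' pyrimidine line climbs toward the 3′ end, reaches 98.2% at the base before the closing AG and is 0 at the AG itself, while the other rows stay near an even share throughout.

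The mature arms follow the same layout. RefSeq held a hairpin for 160 members and 310 mature sequences for 162 members. Both arms had a median length of 22 nucleotides. The 3p arms were pyrimidine-rich, with a median of 71.4% pyrimidine and 14.3% guanine, whereas the 5p arms had 31.8% and 45.5%. Of the 145 3p arms from members that end on the intron's last base, 115 end on that same base and 138 within 2 bases of it. AG closes 79.3% of these 3p arms, which restates where they end, since introns mostly end with AG. It closes 10 of the 144 5p arms of the same members. Among the 1428 mature sequences from genes outside the block, of either arm and any place, the share was 9.31%. On the other side, 121 of the 156 5p arms start at base 6 of the hairpin, and 64 of those begin with U.

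The seed, bases 2 to 8 of a mature microRNA, is the stretch that pairs with target transcripts. Members carried 285 distinct seeds. Of these, 21 occur in more than 1 member, joining 45 members, and 40 also occur in a mature sequence from outside the block. The arms of Mir6944 share their seed with no other mature sequence of the table. One seed is shared by the 3p arms of 2 of the detected whole-intron members, Mir7018 and Mir7068, and by that of Mir7023. The hairpin of Mir7023 reaches only the 3′ splice site and had no count in either library. These 5 mature sequences are shown with the seed in capitals.
miR-6944-5p: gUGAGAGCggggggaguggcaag
miR-6944-3p: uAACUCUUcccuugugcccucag
miR-7018-3p: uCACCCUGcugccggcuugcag
miR-7068-3p: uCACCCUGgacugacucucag
miR-7023-3p: uCACCCUGucugcgccccucag
The gene counts add up both arms, so which arm gave the reads of a member was not measured here.

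The libraries held many counts for the abundant microRNAs of limb and few for these genes. Replicate 1 held 4525636 gene counts of 10646293 reads and replicate 2 held 3604284 of 9738708. A single count was worth 0.221 and 0.277 CPM, and the detection limit of 3 counts was 0.663 and 0.832 CPM. The tissue label was checked on 7 microRNAs of limb tissue types (Mir196b, Mir10b, Mir140, Mir206, Mir205, Mir214 and Mir126a), which ranged from 2347 to 86831 CPM. Mir196b, from the Hoxa cluster, stood at 86831 ± 9376 CPM (SD, n = 2), and the cartilage microRNA Mir140 at 23899 ± 1020 CPM. Of the markers of other tissues, the liver gene Mir122 stood at 15.0 ± 2.8 CPM, the red-cell gene Mir451a at 174 ± 54 CPM and the endocrine gene Mir375 at 1511 ± 143 CPM. The brain gene Mir124a-1 had no count. It shares a stretch of 20 bases with another microRNA row, so reads that fit both rows may not have been counted for it. The part of these other tissues in the members' counts was not tested.

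All 177 members together received 725 counts in replicate 1 and 560 in replicate 2. That is 160.2 and 155.4 CPM, a summed level of 158 ± 3.4 CPM (SD, n = 2). As a share of all gene counts replicate 1 gave 0.0160%, with exact Clopper-Pearson limits at 95% of 0.0149% and 0.0172%. Replicate 2 gave 0.0155%, with limits of 0.0143% and 0.0169%, so the intervals overlap. They cover counting error only, since reads without molecular identifiers are not independent molecules. The single gene Mir451a, at 212 and 135 CPM, lay above the whole block in replicate 1 and below it in replicate 2. The counts were on the members' own strand, and the opposite strand held 2 counts in replicate 1 and 0 in replicate 2. That is 0.155% of the members' total, against 2.49% over all rows. The larger share came mostly from rows outside the block without a same-strand host gene, at 10.3%. Rows outside the block that lie in an intron away from its ends stood at 0.0273%. Those that reach only the 3′ splice site stood at 0%.

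Most members were seen a few times at most. At least 1 count in either library was found for 131 members, or 74.0%, against 36.3% of all 1973 rows. More than 3 counts in both libraries, the limit used here for detection, was met by 23 members, or 13.0%, against 21.8% of all rows. At 10 CPM or more in both libraries stood 1 member, or 0.565%, against 14.5% of all rows. The members' share was thus the larger one for a single count and the smaller one at both higher limits. Outside the block, a count was found for 57.1% of the 28 rows that reach only the 3′ splice site. For the 8 that fill a whole intron it was 75.0%. A shared stretch, which could divide reads between genes, was also commoner in the matched rows outside the block, at 54.0% against 1.13% of members. These shares describe the 2 libraries and were not tested. Some 59.3% of members had between 1 and 10 counts in the sum of both libraries, a class that held 14.9% of all rows. The same class held 35.7% of the 28 rows outside the block that reach only the 3′ splice site. Of the 8 that fill a whole intron it held 25%. The median member had 2 counts in that sum, and 46 members had none.

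The genes numbered Mir3000 to Mir5999, an earlier block of the catalogue, give a comparison by number but not by place. Of its 122 rows, 11 reach only the 3′ splice site and 2 fill a whole intron. In this earlier block 70.5% of rows had a count, close to the members' share. There 38.5% were detected in both libraries, 9.84% stood at 10 CPM or more and 36.9% had between 1 and 10 counts in the sum. Closer in place are the 28 rows outside the members' block that reach only the 3′ splice site. Of these, 21.4% were detected and 3.57% stood at 10 CPM or more. Of all members, 79 had at least 1 count in both libraries, 31 only in replicate 1 and 21 only in replicate 2.

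**Figure D2:**
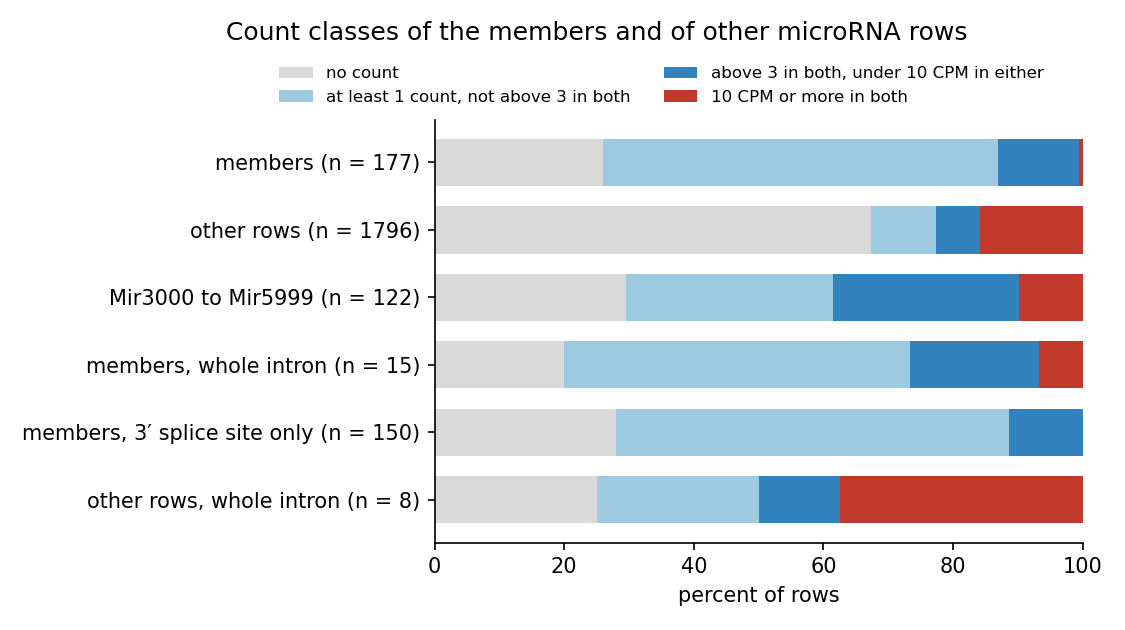
Percent of rows in each of 4 count classes, from no count to 10 CPM or more in both libraries, for the members, the 1796 other rows, the earlier block and the rows that fill a whole intron. The pale blue class, at least 1 count but not above 3 in both libraries, takes up most of the members' bar and little of the other rows' bar.

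Mir6944 stood apart from all other members. It had 257 counts in replicate 1 and 202 in replicate 2, or 56.8 and 56.0 CPM, a mean of 56.4 ± 0.53 CPM (SD, n = 2). The libraries were nearly equal for it, with a log2 ratio of replicate 2 to replicate 1 of −0.02 ± 0.14 (counting SE). It alone held 35.4% and 36.1% of all member counts and exceeded the next member 7.14 and 7.48 times. Its hairpin, shown first above, is the complete 96-nucleotide intron of Dbn1, which encodes the actin-binding protein drebrin. Without it the other 176 members summed to 101 ± 2.9 CPM.

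The next member, Mir7083, had 36 and 27 counts, or 7.95 and 7.49 CPM, and did not reach 10 CPM in either library. It lies at the 3′ end of a 1833-nucleotide intron of Dock6, with 1773 nucleotides of intron before the hairpin. Below it the members formed a continuous range of few counts. Mir7069, in a 90-nucleotide intron of Farsa, a subunit of phenylalanyl-tRNA synthetase, had 12 and 16 counts (3.55 ± 1.26 CPM). Mir6897, in Uggt1, the folding sensor of the endoplasmic reticulum, had 12 and 14 counts (3.27 ± 0.87 CPM). Mir6900, in Ndufa10, a subunit of respiratory complex I, had 16 and 8 counts (2.88 ± 0.93 CPM). These 3 neighbours in the order differed by less than the spread between the libraries.

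Mir7025, the member that straddles the exon of Pdgfra, had 15 and 7 counts (2.63 ± 0.97 CPM). Mir6975, in the RNA helicase gene Ddx39b, had 8 and 10 counts, and Mir6945, in Pdlim7, had 8 and 9. The same counts of 8 and 9 were found for Mir7026 in Ep400, a chromatin remodeller. Mir6935, in the gamma-actin gene Actg1, had 11 and 6 counts, and Mir7036b, the member away from both intron ends, had 8 and 8. All of these levels lay between 1.66 and 3.31 CPM in each library. Their means, from 1.99 to 2.63 CPM, span less than the SD of Mir7025 alone. The other 9 detected members, Mir6956, Mir6991, Mir7059, Mir6934, Mir6946, Mir7063, Mir6965, Mir7036 and Mir6993, all reach the 3′ splice site only and had between 4 and 9 counts in each library.

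**Figure D3:**
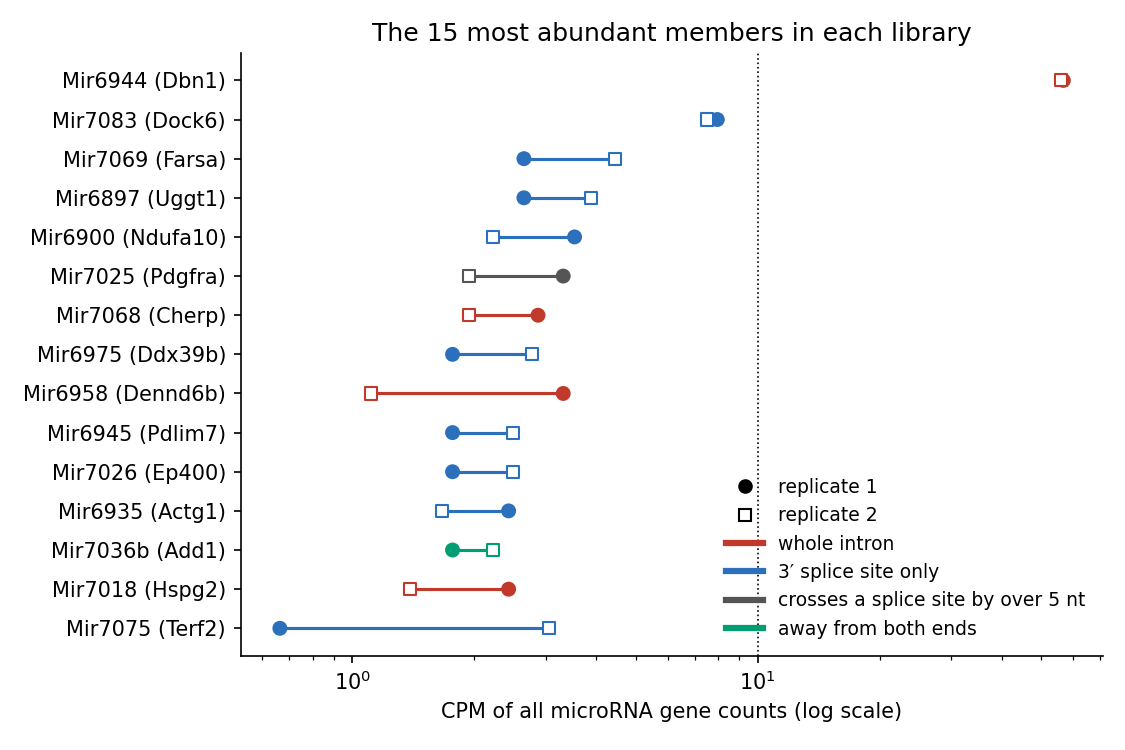
CPM in each library, on a log axis, of the 15 members with the highest mean, each named with its host gene and coloured by the place of its hairpin; the dotted line marks 10 CPM. Mir6944 lies to the right of the line in both libraries and the other 14 lie to its left.

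The 15 members that fill a whole intron were described one by one. Besides Mir6944, 3 of them were detected. Mir7068, in a 74-nucleotide intron of Cherp, a protein of the endoplasmic reticulum and of splicing, had 13 and 7 counts (2.41 ± 0.66 CPM). Mir6958, in a 73-nucleotide intron of Dennd6b, had 15 and 4 counts (2.21 ± 1.56 CPM). Mir7018, in an 85-nucleotide intron of Hspg2, which encodes the basement-membrane proteoglycan perlecan, had 11 and 5 counts (1.91 ± 0.74 CPM). Each of these 3 had more counts in replicate 1, by more than the ratio of the libraries' totals, but none passed the test between the libraries given below.

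Counts were present but did not exceed 3 in both libraries for 8 others of this form. Mir7082, in an intron of Raver1, had 2 and 9 counts, and its hairpin begins 4 bases before the intron, in the exon. Mir6923, in a 72-nucleotide intron of the embryonic myosin gene Myh3, had 3 and 1 counts. Mir7070 in Fbxw9, Mir7060 in Fbrs, Mir7091 in Dnase1l1, Mir6970 in Skiv2l, Mir6981 in Arap3 and Mir7080 in Cpne7 had between 0 and 4 counts in each library.

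No count at all was found for the remaining 3. These were Mir7058 in Lat, an adaptor of T cell receptor signalling, Mir6974 in Lta, the lymphocyte cytokine lymphotoxin alpha, and Mir7088 in Mst1, which encodes macrophage-stimulating protein. Their introns measured 75, 83 and 86 nucleotides. A count of 0 allows a level of up to 0.663 CPM in replicate 1 and 0.832 CPM in replicate 2. The hairpin of Mir7088 begins with GC where the others on the first base of an intron begin with GU, a start known from a small class of introns. Expression of the host genes was not measured by this assay.

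Detection by place can be read side by side. Of the 15 whole-intron members, 12 had a count, 4 were detected and 1 reached 10 CPM. Of the 150 that reach only the 3′ splice site, 108 had a count, 17 were detected and none reached 10 CPM. Of the 4 at the 5′ splice site, 3 had a count and 0 were detected, the highest being Mir6927 in Mllt6 with 3 and 8 counts and Mir6936 in Sirt7 with 9 and 2. All 7 members whose hairpin crosses a splice site by more than 5 bases had a count and 1 was detected. In summed level the whole-intron members came to 67.6 ± 2.6 CPM and those at the 3′ splice site to 79.9 ± 0.41 CPM (SD, n = 2), so 15 hairpins held nearly as much as 150, with Mir6944 making up most of the former.

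**Figure D4:**
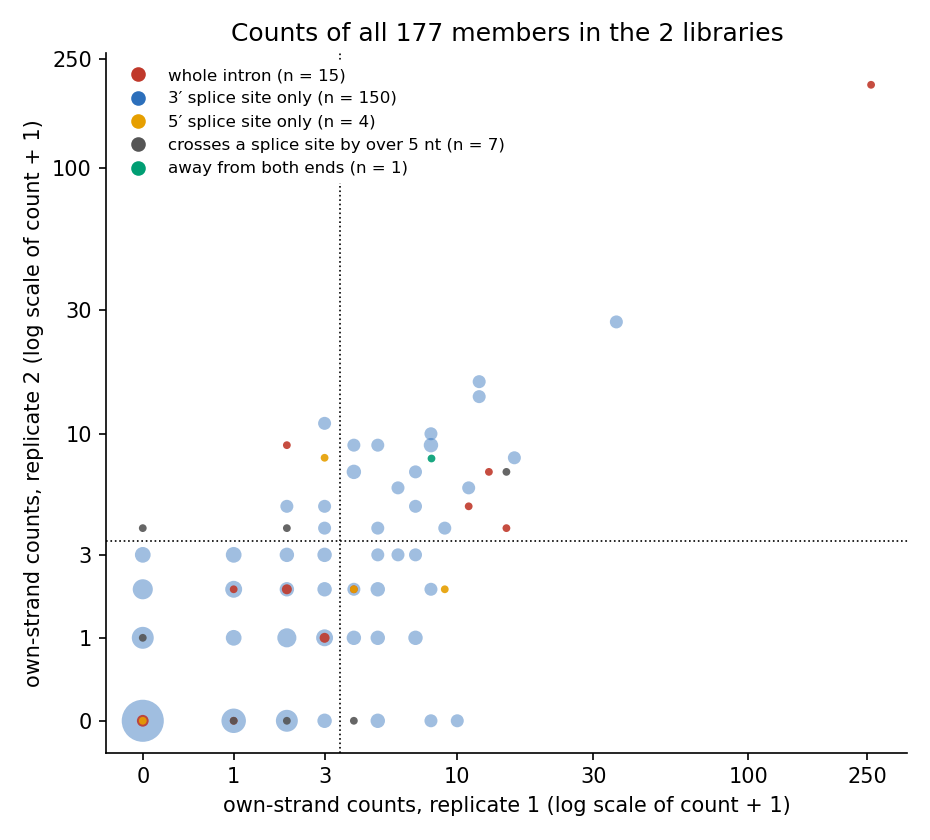
Own-strand counts of every member in replicate 1 and replicate 2, both axes on a log scale of count + 1, coloured by place, with larger points where several members coincide; dotted lines separate 3 counts from 4. The 23 detected members lie in the upper right field, Mir6944 is far beyond the rest at 257 and 202, and the largest point is at 0 and 0.

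Detection showed no steady order with intron length among the 150 members at the 3′ splice site. Of those in introns of up to 100 nucleotides, 2 of 25 were detected. The counts were 3 of 20 from there to 200 nucleotides, 3 of 31 to 500, 4 of 26 to 1000 and 5 of 48 above 1000. The median intron measured 504 nucleotides for the detected, 488 for those not detected and 520 for those with no count. Nor did detection follow GC content in 1 direction, with 6, 4 and 7 detected in 3 groups of 50 members each, from low to high GC. The distance between donor and hairpin, the length of the tail, was over 1000 nucleotides for 44 members and under 100 for 41.

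**Figure D5:**
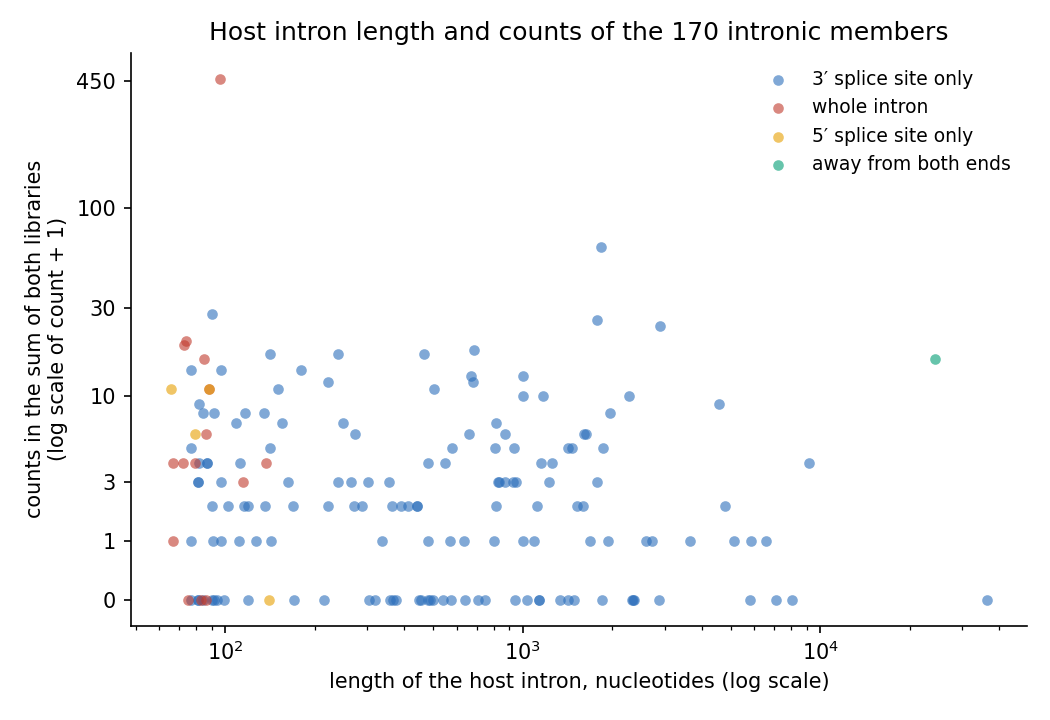
Counts in the sum of both libraries, on a log scale of count + 1, against the length of the host intron in nucleotides, also on a log scale, for the 170 members that lie in an intron, coloured by place. Whole-intron members crowd at the short end, between 67 and 137 nucleotides, and members at the 3′ splice site spread from 77 to 36269 nucleotides with low counts along the whole range.

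Mirtrons known from outside the block give a scale for these levels. Mir1981, a complete intron of Marc2, stood at 95.5 ± 5.0 CPM and Mir877, a complete intron of Abcf1, at 77.8 ± 0.57 CPM, both above Mir6944. Mir702, in Plod3, stood at 46.1 ± 1.7 CPM, below it. By this annotation Mir702 starts 9 bases before its intron and so was not placed at the intron end. Mir1224, a complete intron of Vwa5b2, had 4 and 1 counts. The rows outside the block that fill a whole intron number 8, with Mir1981, Mir877 and Mir1224 among them. The highest of these 8 was Mir3102, in Arhgef17, at 124 ± 9.1 CPM, and 4 of the 8 were detected. Levels were compared here per gene, not per length: scaling each count by hairpin length kept 13 of the 15 highest members among the 15 highest.

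The 2 libraries were compared with each other, which tests these pools and no condition. A two-sided exact binomial test of the counts, given the libraries' totals, was run on the 436 rows with at least 10 counts in the sum, with Benjamini-Hochberg adjustment over all of them. It called 182 rows, or 41.7%. Of the members, 29 had enough counts to be tested and 3 were called, and the median counting SE of their log2 ratios was 0.77. Mir7016, in Tmem39b, had 10 counts in replicate 1 and 0 in replicate 2 (exact binomial test, adjusted p = 0.0087). Mir7075, in Terf2, a telomere-binding protein, had 3 and 11 counts, a log2 ratio of 2.05 ± 0.88 (adjusted p = 0.033 in the exact binomial test). Mir7082 had 2 and 9 counts, a log2 ratio of 2.25 ± 1.02 (adjusted p = 0.037 in the exact binomial test). That test knows counting error only. An exact test in edgeR, with its dispersion taken from the same pair of libraries, called 0 of these members and 0 of all rows. It put 2 members at an unadjusted p under 0.05. Its dispersion already takes in the difference between these libraries, so it could hardly call a row and decides nothing here. Of the members tested, 15 were higher in replicate 2 by CPM and 14 in replicate 1.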

How the data were processed

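The files used hold, per the file headers, gene quantifications on mm10 with GENCODE M4. The authors deposited whole-number counts per microRNA gene in 3 columns, found here to be both strands, own strand and opposite strand, since the first equals the sum of the others in every gene row. No aligner or counter is named (not given in the sources used here). Rows naming no gene (unmapped, multimapping, no feature, ambiguous) were left out of totals; 27.2% and 23.7% of reads were multimapping, so genes with copies can be under-counted. Of 1973 gene rows, 1894 were matched to GENCODE M21 symbols, and hairpins were placed against same-strand exons and introns of that annotation with a tolerance of 5 nucleotides. CPM, the Clopper-Pearson intervals and the exact binomial test (scipy 1.17.1, rows with at least 10 counts in the sum, tested on simulated data) were computed from own-strand counts, the intervals at 95%. Folding energies came from ViennaRNA 2.7.2. The alternatives used edgeR 4.0.16 and DESeq2 1.42.0 scaling. With 1 group and 2 libraries, no comparison between conditions was possible.

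The named genes are the 15 members with the highest mean CPM, the whole-intron members without a count and 4 mirtrons from outside the block. Mir7016 and Mir7082 and the members listed by place or by detection alone were named after their values were seen. The members, marker and mirtron lists were chosen with earlier results of these data known.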

Additional observations from a re-analysis of the deposited data

How the results depend on the processing

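The placement and the standing of Mir6944 held under the alternatives tried, while the number of members called detected followed the limit chosen. Of 23 members detected, the number became 79 with 1 or more counts in both libraries, 4 with 10 or more in both and 71 with more than 3 counts in the sum of both libraries; leaving out 1 library gave 31 to 44, the higher value without replicate 2. The single member at 10 CPM became 20 at 1 CPM, 0 at 100 CPM and 2 with CPM scaled by hairpin length; the other scalings gave 1. The summed level of 157.8 CPM became 154.1 with counts of both strands and 62.8 when scaled to all reads, and was 155.4 to 160.2 in single libraries. Of the whole-intron members, 11 had 1 or more counts in both libraries and 1 had 10 or more. The 3 members called between the libraries became 2 with no filter beyond 1 count in the sum. They became 0 with edgeR's exact test, which takes its dispersion from the same pair and so could hardly call any. Between 167 and 175 members lay at an intron end over tolerances from 0 to 10 nucleotides. No paired analysis was possible because the design has 1 group. At this depth 154 members were not detected in both libraries, and the part of depth in this was not tested.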
